A study of Homo sapiens with 14 samples.

Results

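A set of 10 ceramide and sphingolipid enzymes was followed across an RNA sequencing experiment in KYSE510, an established line of esophageal squamous cell carcinoma. The 10 enzyme genes, of 63677 listed in each expression table, are SPTLC1, SPTLC2, CERS2, DEGS1, UGCG, SGMS1, SGMS2, ASAH1, SPHK1 and SGPL1. They were picked by name for their place in the pathway, after 2 of their results had been seen: UGCG was lower with both small interfering RNAs (siRNAs) against EZH2, and SGPL1 differed between the siRNAs against LAT1. Those values are therefore given as a description without a test, and the other values of these genes are tested.

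The cells were studied 48 h after transfection, in 2 separate series of 6 libraries with 2 libraries per group. In one series, siEZH2-1 and siEZH2-2 lower EZH2, the histone methyltransferase of a Polycomb repressive complex, and are set against the control siRNA siNC. In the other, siLAT1-2 and siLAT1-3 lower SLC7A5, which encodes LAT1, a carrier of large neutral amino acids, and are set against siNC libraries of that series. All groups are one cell line carrying a transfected siRNA, and no untransfected cells were analysed here.

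Ceramide is the hub of sphingolipid metabolism. It is built at the endoplasmic reticulum from serine and an activated fatty acid, and is then turned into sphingomyelin or, by addition of glucose, into the first of the glycosphingolipids. Ceramide is also broken down to sphingosine, which kinases turn into sphingosine 1-phosphate, a signalling lipid whose final cleavage by a lyase is the exit from the pathway. In squamous epithelium, ceramides and glucosylceramides are known as components and precursors of the lipid barrier.

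The upstream sequences of UGCG and SGMS1 are shown. UGCG is the gene whose fall with both EZH2 siRNAs chose the members. SGMS1 was the only tested member called lower with both, that is at an adjusted p under 0.05. DEGS1 also lay below siNC with both, but was called with siEZH2-1 only. Each sequence shown is the 250 bases before the gene's start, read 5′ to 3′ on the gene's own strand, from RefSeq annotation of GRCh38.p14. Capitals mark each CG dinucleotide, the site of DNA methylation. UGCG lies on the forward strand with its window at chr9:111896564-111896813, and SGMS1 on the reverse strand with its window at chr10:50623957-50624206.
UGCG upstream: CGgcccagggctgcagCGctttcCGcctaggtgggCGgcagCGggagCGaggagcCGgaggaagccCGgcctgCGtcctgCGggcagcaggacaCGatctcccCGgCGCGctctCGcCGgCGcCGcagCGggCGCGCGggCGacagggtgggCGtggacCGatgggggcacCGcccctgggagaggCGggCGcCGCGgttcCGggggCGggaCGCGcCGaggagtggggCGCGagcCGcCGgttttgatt
SGMS1 upstream: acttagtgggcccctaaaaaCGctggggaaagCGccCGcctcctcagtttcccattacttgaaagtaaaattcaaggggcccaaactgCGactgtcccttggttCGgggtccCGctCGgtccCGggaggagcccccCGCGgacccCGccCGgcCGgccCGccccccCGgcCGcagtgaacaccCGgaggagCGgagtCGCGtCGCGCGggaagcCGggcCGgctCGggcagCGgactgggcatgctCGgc
The UGCG window holds 39 CG dinucleotides and is 78.4% G or C. As many or more CG dinucleotides stand in 2.65% of 35116 such windows of all genes in the table, whose median is 11. The SGMS1 window holds 28 CG dinucleotides, a number reached by 15.9% of windows. A CG count reads the same on both strands and describes the letters only. Windows are reported here for 8 of the 10 genes, 13 in all, and none is reported here for CERS2 and ASAH1. Among members with 1 window, SGPL1 has 23 CG dinucleotides, SPTLC2 has 21 and SPTLC1 has 16. DEGS1 has 2 windows with 32 and 44, SGMS2 has 3 with 12, 28 and 2, and SPHK1 has 3 with 31, 39 and 15.

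Values are FPKM, that is reads or fragments counted per gene, scaled by gene length and library depth. Depth estimated from the steps between low values was 21320000 to 27380000 counted reads or fragments per library in the EZH2 series and 12920000 to 16700000 in the other. Libraries of a group correlated at r = 0.993 to 0.995 across genes. EZH2 stood at 40.6% of its siNC level with siEZH2-1 and 36.4% with siEZH2-2, and SLC7A5 at 20.3% with siLAT1-2 and 26.0% with siLAT1-3. The EZH2 siRNAs also lowered SLC7A5, unequally. It was at 24.9% of siNC with siEZH2-1 (limma adjusted p = 2.5e-05) and 78.6% with siEZH2-2 (adjusted p = 0.00642). With genes of low values kept in the fit, the siEZH2-2 adjusted p was 0.0579. The part of SLC7A5 in the differences between these siRNAs was not tested. All 8 squamous markers reached 1 FPKM in both series, led by KRT5 at 490 and 468 FPKM. Of 7 immune markers none reached 1 FPKM, of 7 fibroblast markers only COL1A1 did, at 1.23 and 2.00 FPKM, and of 5 endothelial markers only CDH5 did, at 1.02 FPKM in the LAT1 series.

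Every member was measured in every library. With siNC in the EZH2 series, UGCG had the highest level of the 10 at 60.9 ± 6.02 FPKM (SD, n = 2), followed by SPTLC1 at 32.9 ± 2.40 and DEGS1 at 21.9 ± 0.276 FPKM. SGMS2 had the lowest, at 4.01 ± 0.721 FPKM. Neighbours in this order whose libraries overlapped were SGPL1 with CERS2 and SPTLC2 with SPHK1. With siNC in the LAT1 series, DEGS1 was highest at 49.5 ± 1.22 FPKM, then SPTLC1 at 30.0 ± 0.601 and UGCG at 29.0 ± 0.573 FPKM, and SPHK1 was lowest at 3.56 ± 0.148 FPKM, overlapping SGMS2. The tables were scaled apart, so the levels of a gene in the siNC libraries of the 2 series are only set side by side. Changes below are differences of log2(FPKM + 1) between group means, which understate the change of genes with low values. A change is called where limma's adjusted p over all genes of a table is under 0.05. The labels do not state whether the 2 libraries of a group stem from different cultures. A p-value here thus reflects variation among libraries, possibly technical. In RNA from whole cultures, fewer cells of a kind and less RNA per cell cannot be told apart.

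**Figure D1:**
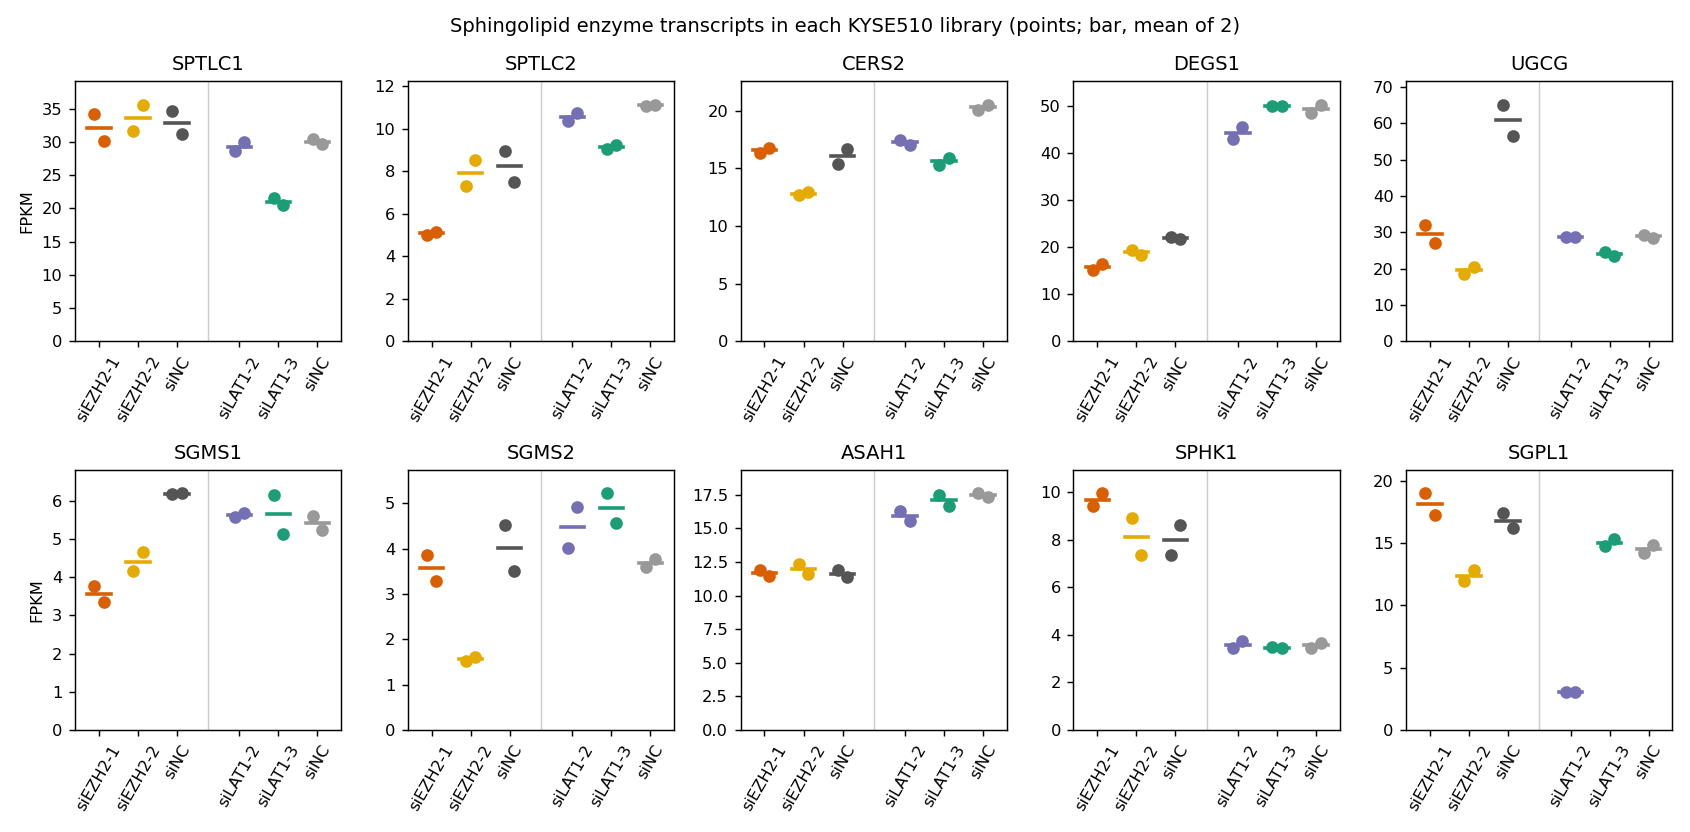
Level of each of the 10 members (FPKM, axis from 0) in the 12 libraries, with each point 1 library and each line the mean of a group. UGCG stood at 18.6 to 32.0 FPKM in the 4 EZH2 siRNA libraries and at 56.6 and 65.2 FPKM with siNC, and SGPL1 stood at 3.06 and 3.09 FPKM with siLAT1-2, apart from all other libraries.

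SPTLC1 and SPTLC2 encode subunits of serine palmitoyltransferase, the first and rate-limiting enzyme of ceramide synthesis. They did not move together with the EZH2 siRNAs: SPTLC2 fell with siEZH2-1, and no change of SPTLC1 was called. SPTLC2 (ENSG00000100596) had 5.01 and 5.15 FPKM with siEZH2-1, 7.29 and 8.52 FPKM with siEZH2-2, and 8.95 and 7.52 FPKM with siNC. Both siEZH2-1 libraries lay below all others, whereas siEZH2-2 overlapped siNC. The change was -0.60 ± 0.102 (log2, SE; adjusted p = 0.00812) with siEZH2-1 and -0.05 (95% interval -0.30 to 0.19, adjusted p = 0.746) with siEZH2-2, and siEZH2-2 minus siEZH2-1 was 0.55 (adjusted p = 0.0164). Without the filter on low values the adjusted p of SPTLC2 was 0.0557 for siEZH2-1 and 0.0915 for the difference. The difference also lost its call without siEZH2-1 replicate 1 (adjusted p = 0.0744), siEZH2-1 replicate 2 (0.0749) or siEZH2-2 replicate 2 (0.0772). SPTLC1 (ENSG00000090054) ranged from 30.1 to 35.6 FPKM over the 6 libraries, and its intervals were -0.25 to 0.18 with siEZH2-1 and -0.19 to 0.25 with siEZH2-2.

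Both serine palmitoyltransferase genes fell with siLAT1-3, and neither was called with siLAT1-2. SPTLC1 had 21.5 and 20.5 FPKM with siLAT1-3, 28.6 and 30.0 FPKM with siLAT1-2, and 30.5 and 29.6 FPKM with siNC. The siLAT1-3 libraries lay below all others, and siLAT1-2 overlapped siNC. SPTLC1 stood at 69.8% of siNC with siLAT1-3 (log2 -0.50 ± 0.0405, adjusted p = 0.000241) and at 97.4% with siLAT1-2 (log2 -0.04, 95% interval -0.13 to 0.06). SPTLC2 had 9.05 and 9.26 FPKM with siLAT1-3, 10.4 and 10.8 FPKM with siLAT1-2, and 11.1 and 11.1 FPKM with siNC. Here the 3 groups did not overlap, and the siLAT1-3 change was -0.25 ± 0.0414 (adjusted p = 0.00448) against -0.07 (adjusted p = 0.265) with siLAT1-2. The siRNAs differed from each other by -0.46 in SPTLC1 (siLAT1-3 minus siLAT1-2, adjusted p = 0.000393) and by -0.19 in SPTLC2 (adjusted p = 0.0176). The SPTLC2 difference lost its call without siLAT1-2 replicate 2 (adjusted p = 0.0867), siLAT1-3 replicate 1 (0.0764) or siLAT1-3 replicate 2 (0.0525).

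CERS2 encodes a ceramide synthase that joins very long fatty acyl chains to the sphingoid base. It fell with 3 of the 4 siRNAs. CERS2 (ENSG00000143418) had 16.4 and 16.8 FPKM with siEZH2-1, 12.7 and 12.9 FPKM with siEZH2-2, and 15.4 and 16.7 FPKM with siNC. The siEZH2-2 libraries were the lowest, and siEZH2-1 overlapped siNC. The change was -0.31 ± 0.0606 (adjusted p = 0.0136) with siEZH2-2 and 0.04 (95% interval -0.10 to 0.19) with siEZH2-1. The siEZH2-2 call was lost without siEZH2-2 replicate 1 (adjusted p = 0.0661) or siNC replicate 2 (0.0763). The EZH2 siRNAs differed by -0.35 in CERS2 (siEZH2-2 minus siEZH2-1, adjusted p = 0.0127), which missed the threshold when any 1 of the 4 siEZH2 libraries was left out (adjusted p = 0.0536 to 0.0880).

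In the LAT1 series CERS2 was the only tested member called in the same direction with both siRNAs. It had 15.3 and 15.9 FPKM with siLAT1-3, 17.4 and 17.1 FPKM with siLAT1-2, and 20.1 and 20.5 FPKM with siNC. The 3 groups did not overlap. CERS2 stood at 76.8% of siNC with siLAT1-3 (log2 -0.36 ± 0.0373, adjusted p = 0.000668) and 84.9% with siLAT1-2 (log2 -0.22 ± 0.0373, adjusted p = 0.00465). Both siRNAs were set against the same siNC libraries. The difference between the siRNAs was -0.14 (siLAT1-3 minus siLAT1-2, adjusted p = 0.0373), and was not called without the filter on low values (0.0750). Leaving out any 1 of the 6 libraries also ended that call (log2 -0.16 to -0.11).

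DEGS1 encodes the desaturase that makes ceramide from dihydroceramide, the last step of synthesis. It had 15.1 and 16.5 FPKM with siEZH2-1, 19.4 and 18.5 FPKM with siEZH2-2, and 22.1 and 21.7 FPKM with siNC. The groups did not overlap, with siEZH2-1 lowest. DEGS1 (ENSG00000143753) fell with siEZH2-1 to 72.1% of siNC (log2 -0.45 ± 0.0637, adjusted p = 0.00408), while 86.3% with siEZH2-2 was not called (log2 -0.20, 95% interval -0.36 to -0.05, adjusted p = 0.0614). The difference of 0.25 between the EZH2 siRNAs (siEZH2-2 minus siEZH2-1, adjusted p = 0.0459) was lost when any 1 of the 6 libraries was left out (adjusted p = 0.0757 to 0.201).

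With the LAT1 siRNAs, DEGS1 had 50.0 and 50.0 FPKM with siLAT1-3, 43.1 and 45.7 FPKM with siLAT1-2, and 48.6 and 50.3 FPKM with siNC. The siLAT1-2 libraries were the lowest, and siLAT1-3 lay within the range of siNC. The change was -0.15 ± 0.0367 (adjusted p = 0.0194) with siLAT1-2 and 0.01 (95% interval -0.07 to 0.10) with siLAT1-3. The siLAT1-2 call of DEGS1 was lost without siLAT1-2 replicate 1 (adjusted p = 0.0888) or siNC replicate 2 (0.113) and without the filter on low values (0.0762). The siRNAs differed by 0.17 (siLAT1-3 minus siLAT1-2, adjusted p = 0.0172), a call lost without the filter (0.0720), without siLAT1-2 replicate 1 (0.0789) and without either siLAT1-3 library (0.0675 and 0.0704).

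UGCG encodes glucosylceramide synthase, which adds glucose to ceramide and so opens the glycosphingolipid branch. UGCG (ENSG00000148154) had 32.0 and 27.1 FPKM with siEZH2-1, 18.6 and 20.5 FPKM with siEZH2-2, and 65.2 and 56.6 FPKM with siNC. The 3 groups did not overlap, and siEZH2-2 was lowest. The levels were 48.5% of siNC with siEZH2-1 and 32.1% with siEZH2-2, or log2 changes of -1.02 and -1.59. These are values that chose the members and carry no test.

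In the LAT1 series, which had no part in choosing it, UGCG fell with siLAT1-3 alone among the LAT1 siRNAs. It had 24.7 and 23.5 FPKM with siLAT1-3, 28.7 and 28.6 FPKM with siLAT1-2, and 29.4 and 28.6 FPKM with siNC. The siLAT1-3 libraries lay below all others, and siLAT1-2 overlapped siNC. UGCG stood at 83.2% of siNC with siLAT1-3 (log2 -0.26 ± 0.0358, adjusted p = 0.00247) and at 99.0% with siLAT1-2 (log2 -0.01, 95% interval -0.10 to 0.07). The difference between them was -0.24 (siLAT1-3 minus siLAT1-2, adjusted p = 0.00373), and these UGCG calls held in every alternative run. In the same libraries EZH2 stood at 93.8% of siNC with siLAT1-3 and 98.4% with siLAT1-2, and neither was called (adjusted p = 0.263 and 0.771).

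SGMS1 and SGMS2 encode sphingomyelin synthases, which move a phosphocholine head group onto ceramide, SGMS1 at the Golgi and SGMS2 also at the plasma membrane. SGMS1 (ENSG00000198964) had 3.76 and 3.36 FPKM with siEZH2-1, 4.16 and 4.65 FPKM with siEZH2-2, and 6.18 and 6.19 FPKM with siNC. All 4 siRNA libraries lay below both siNC libraries, and SGMS1 was the only tested member called in the same direction with both EZH2 siRNAs. It fell to 57.6% of siNC with siEZH2-1 (log2 -0.66 ± 0.0813, adjusted p = 0.00248) and to 71.2% with siEZH2-2 (log2 -0.41 ± 0.0813, adjusted p = 0.0134). Both EZH2 siRNAs were set against the same siNC libraries, so these calls are not independent. The siEZH2-1 call held in every alternative that kept the gene (in this series a filter at 5 FPKM leaves SGMS1 and SGMS2 out). The siEZH2-2 call of SGMS1 was lost without siEZH2-2 replicate 1 (adjusted p = 0.0690), siNC replicate 1 (0.0670) or siNC replicate 2 (0.0598), and without the filter on low values (0.0578). How strand was used in counting is not given in the sources used here, so reads from SGMS1 and from an antisense RNA at its locus cannot be told apart. In the LAT1 series SGMS1 ranged from 5.14 to 6.14 FPKM, and its intervals were -0.14 to 0.24 with siLAT1-3 and -0.14 to 0.24 with siLAT1-2.

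SGMS2 differed between the EZH2 siRNAs. SGMS2 (ENSG00000164023) had 3.87 and 3.28 FPKM with siEZH2-1, 1.53 and 1.62 FPKM with siEZH2-2, and 4.52 and 3.50 FPKM with siNC. The siEZH2-2 libraries lay far below the others, and siEZH2-1 overlapped siNC. It fell to 39.3% of siNC with siEZH2-2 (log2 -0.95 ± 0.121, adjusted p = 0.00269), a call held in every alternative that kept the gene, and was not called with siEZH2-1 (log2 -0.13, 95% interval -0.42 to 0.16). The difference of -0.83 (siEZH2-2 minus siEZH2-1, adjusted p = 0.00682) missed the threshold without the filter (0.0586). In the LAT1 series SGMS2 had 5.22 and 4.56 FPKM with siLAT1-3, 4.02 and 4.93 FPKM with siLAT1-2, and 3.59 and 3.77 FPKM with siNC. All 4 siRNA libraries lay above siNC, and the siLAT1-3 change of 0.33 ± 0.0965 was called (adjusted p = 0.0407) while 0.22 with siLAT1-2 was not (adjusted p = 0.125). The siLAT1-3 call of SGMS2 was lost without either siLAT1-3 library (adjusted p = 0.179 and 0.0540), without either siNC library (0.168 and 0.115) and without the filter (0.170). The siLAT1-2 change became a call without siLAT1-2 replicate 1 (0.34, adjusted p = 0.0478).

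**Figure D2:**
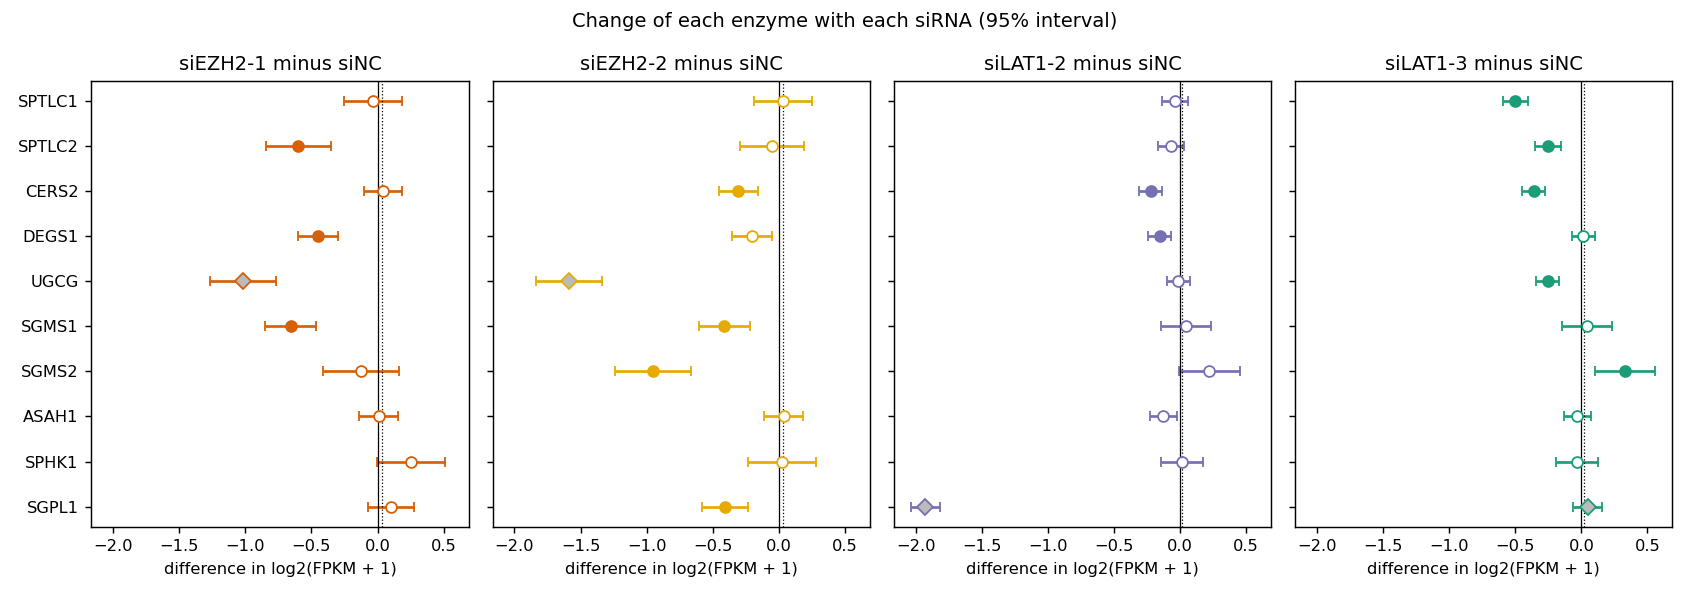
Change of each member with each siRNA against siNC of the same series (log2(FPKM + 1), points with 95% intervals). Filled points were called by limma and open points were not. Grey diamonds mark the values of UGCG and SGPL1 that chose the members, and dotted lines mark the median of all genes. The intervals on grey diamonds are for description only and are not to be read as a test. SGMS1 lies below 0 with both EZH2 siRNAs at -0.66 and -0.41, and CERS2 at -0.22 with siLAT1-2 and -0.36 with siLAT1-3.

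ASAH1, the lysosomal acid ceramidase, and SPHK1, a kinase that makes sphingosine 1-phosphate, had no called change with any of the 4 siRNAs. ASAH1 (ENSG00000104763) had 11.9 and 11.5 FPKM with siEZH2-1, 12.3 and 11.6 FPKM with siEZH2-2, and 11.9 and 11.4 FPKM with siNC. These groups overlapped, and the intervals of its change, -0.14 to 0.16 with siEZH2-1 and -0.11 to 0.19 with siEZH2-2, were among the narrowest of the members. In the LAT1 series ASAH1 had 17.5 and 16.6 FPKM with siLAT1-3, 16.3 and 15.5 FPKM with siLAT1-2, and 17.6 and 17.3 FPKM with siNC. The siLAT1-2 libraries were the lowest, and the change of -0.13 missed the threshold (95% interval -0.23 to -0.03, adjusted p = 0.0604). It was called with quantile normalization (-0.15, adjusted p = 0.0290) and with a filter at 5 FPKM (adjusted p = 0.0470). SPHK1 (ENSG00000176170) had 9.41 and 9.95 FPKM with siEZH2-1, 8.91 and 7.34 FPKM with siEZH2-2, and 7.34 and 8.61 FPKM with siNC. Only siEZH2-1 lay above both siNC libraries, and its change of 0.25 had an interval of -0.003 to 0.51 (adjusted p = 0.125). In the LAT1 series SPHK1 ranged only from 3.43 to 3.75 FPKM.

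SGPL1 encodes sphingosine 1-phosphate lyase, the exit enzyme of the pathway. SGPL1 (ENSG00000166224) had 14.8 and 15.3 FPKM with siLAT1-3, 3.06 and 3.09 FPKM with siLAT1-2, and 14.2 and 14.8 FPKM with siNC. Only the siLAT1-2 libraries stood apart. The levels were 103.6% of siNC with siLAT1-3 and 21.2% with siLAT1-2, and the log2 difference between the siRNAs was 1.98 (siLAT1-3 minus siLAT1-2). SLC7A5 itself stood at 26.0% with siLAT1-3 and 20.3% with siLAT1-2. The SGPL1 values of this series chose the members and carry no test.

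In the EZH2 series SGPL1 also differed between siRNAs of one target. It had 19.0 and 17.2 FPKM with siEZH2-1, 11.97 and 12.82 FPKM with siEZH2-2, and 17.4 and 16.2 FPKM with siNC. The siEZH2-2 libraries lay below all others, and siEZH2-1 overlapped siNC. SGPL1 fell to 73.8% of siNC with siEZH2-2 (log2 -0.41 ± 0.0727, adjusted p = 0.00920) and was not called with siEZH2-1 (log2 0.10, 95% interval -0.07 to 0.28). The difference of -0.51 (siEZH2-2 minus siEZH2-1, adjusted p = 0.00618) held in every alternative run, whereas the fall against siNC missed the threshold when siNC replicate 1 was left out (adjusted p = 0.0557).

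The calls of the 9 members that remain when UGCG is set aside in the EZH2 series were as follows. With siEZH2-1, 3 of 9 were lower (SPTLC2, DEGS1 and SGMS1) and 0 higher, where 11.4% of 11585 tested genes were lower and 15.9% higher, 27.2% in all. With siEZH2-2, 4 of 9 were lower (CERS2, SGMS1, SGMS2 and SGPL1) and 0 higher, where 10.9% of all genes were lower and 13.9% higher, 24.8% in all. Between the siRNAs, 3 of 9 were lower with siEZH2-2 (CERS2, SGMS2 and SGPL1) and 2 higher (SPTLC2 and DEGS1), where 8.86% of all genes were lower and 7.40% higher, 16.3% in all. The median change of the 9 was -0.03 with siEZH2-1 and -0.20 with siEZH2-2, beside 0.03 over all genes with each. In the same direction with both siRNAs, 1 of 9 was called, beside 13.0% of all genes.

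With SGPL1 set aside in the LAT1 series, siLAT1-3 gave 4 of 9 members lower (SPTLC1, SPTLC2, CERS2 and UGCG) and 1 higher (SGMS2), where 13.6% of 11678 genes were lower and 17.9% higher, 31.4% in all. With siLAT1-2, 2 of 9 were lower (CERS2 and DEGS1) and 0 higher, where 13.9% of all genes were lower and 18.6% higher, 32.5% in all. Between the siRNAs, 4 were lower with siLAT1-3 (SPTLC1, SPTLC2, CERS2 and UGCG) and 1 higher (DEGS1), where 13.1% of all genes were lower and 12.4% higher, 25.5% in all. The median change of the 9 was -0.03 with siLAT1-3 and -0.04 with siLAT1-2, beside 0.02 over all genes with each. In the same direction with both siRNAs, 1 of 9 was called, beside 16.5% of all genes. Since the members were chosen with results of these comparisons known, no list test was made of these counts.

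**Figure D3:**
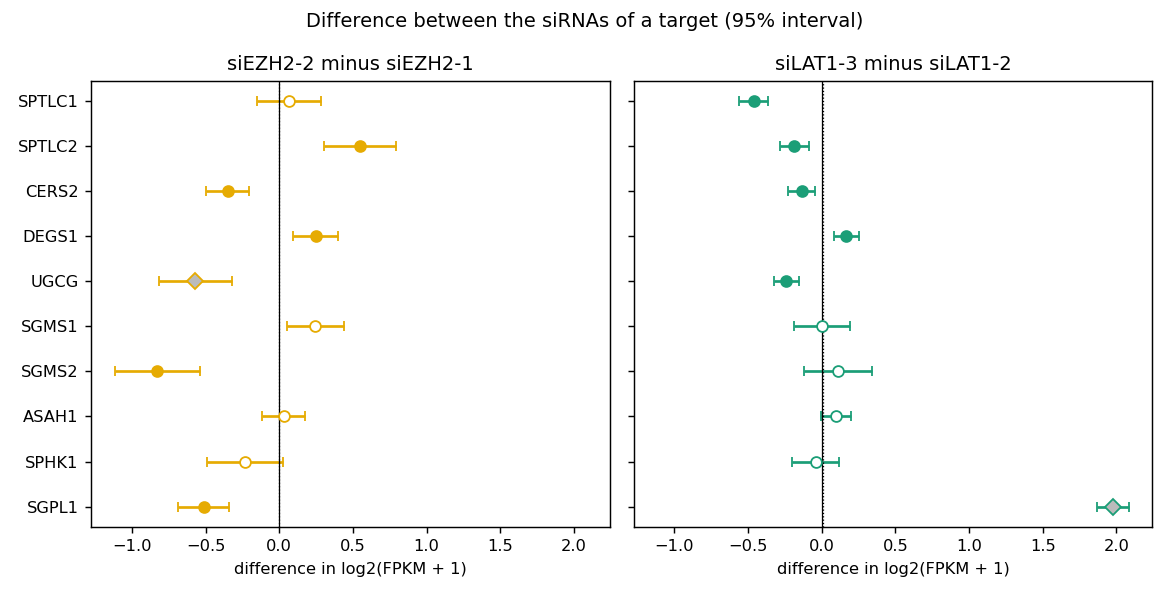
Difference of each member between siRNAs of one target, siEZH2-2 minus siEZH2-1 and siLAT1-3 minus siLAT1-2 (log2(FPKM + 1), points with 95% intervals, filled where called by limma). Grey diamonds mark values that chose the members or share their contrast, and their intervals are not to be read as a test. SGMS2 and SGPL1 were lower with siEZH2-2 by -0.83 and -0.51, and SPTLC1 was lower with siLAT1-3 by -0.46.

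The rest of the pathway was read from 70 further genes in 6 lists, of which 47 passed the filter for the EZH2 siRNAs and 49 for the LAT1 siRNAs. With siEZH2-1, 4 of 47 were higher and 9 lower, where 15.9% of all genes were higher and 11.4% lower (27.2% in either direction). With siEZH2-2, 4 were higher and 7 lower, where 13.9% of all genes were higher and 10.9% lower (24.8%). In either direction these counts are near the share over all genes, and the counts of single lists given next, each over few genes, are to be read beside the same shares. In the list of glycosphingolipid synthesis, 1 of 8 tested genes was higher and 2 lower with siEZH2-1, and 1 higher and 3 lower with siEZH2-2. B3GNT5, which starts the lacto-series of glycosphingolipids and so acts downstream of UGCG, had 4.19 ± 0.728 FPKM with siEZH2-1 and 3.87 ± 0.481 with siEZH2-2, against 9.66 ± 0.905 FPKM in siNC libraries. It fell with both (log2 -1.04 and -1.13, adjusted p = 0.00220 and 0.00162). GLTP, a glycolipid transfer protein, rose (log2 0.36 and 0.41, adjusted p = 0.0136 and 0.00911), but lost its call without siNC replicate 1 with siEZH2-1 and with siEZH2-2 (0.0783 and 0.0511), without the filter (0.0639, and just above the threshold for siEZH2-2) and, for siEZH2-1, without its replicate 1 (0.0672).

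Among breakdown genes, 2 of 11 were higher and 0 lower with siEZH2-1, and 1 was higher and 1 lower with siEZH2-2. The sialidase gene NEU1 fell with siEZH2-2 to 4.65 FPKM, against 7.69 FPKM with siNC (log2 -0.62, adjusted p = 0.00255), and stood at 8.36 FPKM with siEZH2-1. Of 4 ceramidase and kinase genes, 3 were lower with siEZH2-1 and 2 with siEZH2-2, where 11.4% and 10.9% of all genes were lower. ACER3, an alkaline ceramidase, was called lower with both EZH2 siRNAs. It stood at 76.5% of siNC with siEZH2-1 and 70.9% with siEZH2-2 (log2 -0.44, adjusted p = 0.0133). The siEZH2-2 call of ACER3 was lost without the filter (0.0686), siEZH2-2 replicate 1 (log2 -0.44) or siNC replicate 1 (log2 -0.33). Its siEZH2-1 call was lost without the filter (0.115), either siEZH2-1 library or siNC replicate 1. ACER2 stood at 0.865 FPKM with siEZH2-1 and 1.75 FPKM with siNC (log2 -0.56, adjusted p = 0.0326). It lost its call without the filter (0.155) and when either siEZH2-1 or either siNC library was left out (log2 -0.64 to -0.48).

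De novo synthesis was represented by 9 further tested genes, of which 0 were higher and 1 lower with siEZH2-1, and 1 higher and 0 lower with siEZH2-2. KDSR, the reductase that follows serine palmitoyltransferase, had 3.96 ± 0.0495 FPKM with siEZH2-1 and 8.87 ± 0.141 with siEZH2-2, against 7.84 ± 0.198 FPKM in siNC libraries. It fell with siEZH2-1 (log2 -0.84, adjusted p = 0.000430), and siEZH2-2 minus siEZH2-1 was 0.99 (adjusted p = 0.000329). CERS4, another ceramide synthase, was higher with siEZH2-2 (log2 0.26, adjusted p = 0.0353). That call was lost without the filter (0.0958) and when any 1 of 5 libraries was left out, all but siNC replicate 2 (log2 0.20 to 0.30). Of 8 tested genes of sphingomyelin turnover and ceramide transfer, 1 was higher and 2 lower with siEZH2-1 and 1 higher and 1 lower with siEZH2-2. SMPD4, a neutral sphingomyelinase, rose with siEZH2-1 to 25.4 FPKM, against 18.9 FPKM with siNC (log2 0.41, adjusted p = 0.00525). SMPD1, the acid sphingomyelinase, was lower with siEZH2-2 than with siEZH2-1 (8.86 against 13.1 FPKM, log2 -0.51, adjusted p = 0.00906), without the filter at 0.0573, without siEZH2-1 replicate 2 at 0.0615 and without siEZH2-2 replicate 2 at 0.0513. B4GALT6, a lactosylceramide synthase, was higher with siEZH2-2 than with siEZH2-1 (log2 0.49, adjusted p = 0.0471). That call was lost when any library but siEZH2-1 replicate 1 was left out. The change ranged from 0.34 to 0.64 as each library was left out in turn. It also lost its call without the filter (0.194) and with 0.1 as pseudocount (0.0524). Of 7 genes of sphingosine 1-phosphate turnover and receptors, 0 were higher and 1 lower with siEZH2-1, and none was called with siEZH2-2.

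With siLAT1-3, 6 of 49 pathway genes were higher and 11 lower, where 17.9% of all genes were higher and 13.6% lower (31.4% in either direction). With siLAT1-2, 6 were higher and 10 lower, where 18.6% of all genes were higher and 13.9% lower (32.5%). These totals too are near the share over all genes, beside which the single lists below are to be read. In glycosphingolipid synthesis, 2 of 8 were higher and 2 lower with siLAT1-3, and 0 higher and 3 lower with siLAT1-2. B4GALT6 had 0.745 FPKM with siLAT1-3, 1.34 FPKM with siLAT1-2 and 2.69 FPKM with siNC, and fell with both (log2 -1.08 and -0.66, adjusted p = 0.000289 and 0.00221). The siRNA difference of -0.42 in B4GALT6 (siLAT1-3 minus siLAT1-2, adjusted p = 0.0175) was lost without the filter (0.0758), siLAT1-2 replicate 2 (0.0887), siLAT1-3 replicate 1 (0.0547) or siLAT1-3 replicate 2 (0.0678). B3GNT5 fell with siLAT1-2 to 5.96 ± 0.0424 FPKM, against 10.5 ± 0.0424 FPKM with siNC (log2 -0.72, adjusted p = 0.000317), and stood at 8.90 ± 0.870 FPKM with siLAT1-3. The siLAT1-3 change of B3GNT5 (log2 -0.22) was called but missed the threshold without the filter (adjusted p = 0.147). That call was also lost without either siLAT1-2 library, siLAT1-3 replicate 2 (log2 -0.13) or either siNC library. A4GALT, the synthase of globotriaosylceramide, was higher with siLAT1-3 than with siLAT1-2 (5.23 against 3.38 FPKM, log2 0.51, adjusted p = 0.00567).

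Of 11 breakdown genes, 1 was higher and 4 lower with siLAT1-3, and 1 higher and 2 lower with siLAT1-2. Of 4 ceramidase and kinase genes, 1 was higher and 1 lower with each LAT1 siRNA. ACER2 had 0.990 FPKM with siLAT1-3, 1.27 FPKM with siLAT1-2 and 2.77 FPKM with siNC (log2 -0.92 and -0.74, adjusted p = 0.00125 and 0.00291). NAAA, an acid amidase related to ASAH1, was higher (log2 0.37 and 0.38, adjusted p = 0.0286 and 0.0258). Without the filter on low values NAAA was called with neither siRNA (adjusted p = 0.110 with siLAT1-3 and 0.103 with siLAT1-2). Its calls ended when either siLAT1-3 or either siNC library was left out for siLAT1-3 (0.0548 to 0.134), and for siLAT1-2 without either of its own libraries (0.0743 and 0.112) or siNC replicate 2 (0.126). S1PR5, a sphingosine 1-phosphate receptor, had 7.30 FPKM with siLAT1-3, 6.44 FPKM with siLAT1-2 and 4.78 FPKM with siNC (log2 0.52 and 0.36, adjusted p = 0.00504 and 0.0191). Without the filter its siLAT1-2 change was not called (adjusted p = 0.105). The siLAT1-2 call of S1PR5 was lost when either siLAT1-2 or either siNC library was left out (0.0641 to 0.0949).

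Of 9 genes of sphingosine 1-phosphate turnover and receptors, 1 was higher and 1 lower with siLAT1-3, and 1 higher and 2 lower with siLAT1-2. PPAP2A, a lipid phosphate phosphatase, was higher with siLAT1-3 than with siLAT1-2 (4.89 against 3.09 FPKM, log2 0.53, adjusted p = 0.00496). Of 8 genes of sphingomyelin turnover and ceramide transfer, 1 was higher and 1 lower with siLAT1-3, and 1 higher and 2 lower with siLAT1-2. SAMD8, a homologue of the sphingomyelin synthases that makes ceramide phosphoethanolamine, had 6.14 ± 0.212 FPKM with siLAT1-3, 6.82 ± 0.325 FPKM with siLAT1-2 and 10.5 ± 0.1202 FPKM with siNC. It fell with both (log2 -0.69 and -0.56, adjusted p = 0.000170 and 0.000374). Of 9 further genes of de novo synthesis, 0 were higher and 2 lower with siLAT1-3, and 2 higher and 0 lower with siLAT1-2. CERS6, another ceramide synthase, was lower with siLAT1-3 than with siLAT1-2 (13.3 against 17.1 FPKM, log2 -0.34, adjusted p = 0.00458). B3GNT5 was called lower and SMPD4 higher with all 4 siRNAs, as were 1.34% and 5.39% of the 10804 genes tested in both tables. The SMPD4 call was lost when any 1 library was left out with siEZH2-2 (0.0657 to 0.228), when either siLAT1-2 or either siNC library was left out with siLAT1-2 (0.0663 to 0.172), and without siLAT1-3 replicate 1 (0.0526) or siNC replicate 1 (0.0690) with siLAT1-3. The siLAT1-2 call of SMPD4 was also lost with quantile normalization (0.0771) and without the filter (0.0739), as was its siEZH2-2 call without the filter (0.117).

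**Figure D4:**
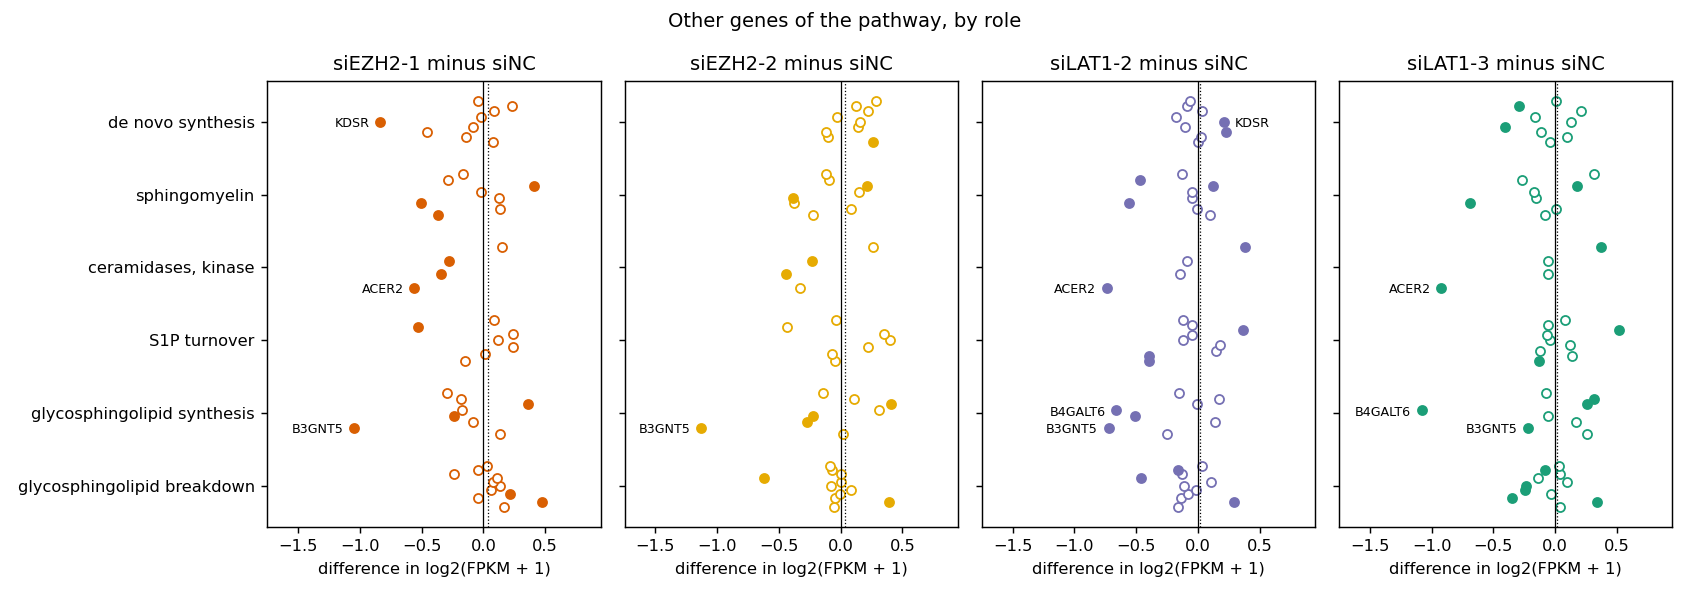
Change of the tested genes of the 6 pathway lists with each siRNA against siNC (log2(FPKM + 1)), grouped by role. Each point is 1 gene, filled where called by limma, and dotted lines mark the median of all genes. The B3GNT5 points of glycosphingolipid synthesis lie at -1.04 and -1.13 with the EZH2 siRNAs.

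The genes nearest to UGCG in pattern were sought among the 6627 genes averaging 5 FPKM or more in each table, as the smallest distance over the 12 libraries of log2 values centred on siNC of their series. They were THBS1, which encodes thrombospondin, at a distance of 0.585, the siRNA target EZH2 at 0.605 and SAA1, an acute-phase gene, at 0.847, beside a median of 2.77 over all genes compared. THBS1 changed by -0.70 with siEZH2-1 and -1.74 with siEZH2-2, and SAA1 by -0.95 and -1.32. Nearest to SGPL1 were the locus ENSG00000223478 at 0.860, CYB5R3, a cytochrome b5 reductase, at 0.870 and CAP2 at 0.920, beside a median of 2.88. With siLAT1-2, where SGPL1 stood at -1.93, these stood at -1.59, -2.02 and -1.37, and with siLAT1-3 at 0.04, -0.02 and -0.15. The nearest genes hold the smallest of these distances, so they lie below the median by construction. UGCG and SGPL1 were chosen by their changes in these same libraries. A likeness to other genes that fell there, such as the target EZH2, follows in part from that choice. The 12 points of each pattern also share siNC libraries and siRNAs, so these distances are a description.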

How the data were processed

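The authors deposited FPKM per gene to 2 decimals, with the 6 libraries of a series as columns of 1 table; the unit is taken from the values and the column layout, as the tables do not name it. The submitters' processing notes list hg19 and hg38 as builds and SEACR, STAR, Picard, Bowtie, Bowtie2 and Trim Galore as tools, but not which of them these tables came from, and the counting program and strand setting are not given in the sources used here. CUT&Tag samples of the study were not analysed here. The LAT1 series' titles number both siNC libraries alike, so the descriptions were followed.

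Each table was fitted alone with limma 3.58.1 (R 4.3.3) with trend, on log2(FPKM + 1) of genes averaging 1 FPKM or more over their 6 libraries, 1 coefficient per group; a count test had been planned for counts only. Calls are at an adjusted p (Benjamini-Hochberg over all genes kept) under 0.05, two-sided, with 95% intervals throughout. An exact permutation test of 2 against 2 libraries cannot give a p under 0.333, so calls rest on the spread pooled across genes, and intervals cover the spread between libraries only. The depth estimate made 79.8% to 88.8% of low values whole within 0.12 reads and was the best of many searched, so it is approximate. The procedure was also run on simulated data with independent noise in each library, which does not cover deviations shared between libraries. Members and pathway lists were chosen with earlier results of these data known. Named pathway genes were the up to 3 highest and 3 lowest called changes per siRNA and the up to 2 largest called differences per direction between siRNAs, and 1 gene that met this rule is not reported here; ID duplicates of a symbol were resolved through a gene name table. The alternatives tried were each library left out, a replicate block, quantile normalization, a 5 FPKM filter or none and 0.1 as pseudocount. Plots were made with Python 3.11.15, pandas 2.3.3 and matplotlib 3.10.9.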

Additional observations from a re-analysis of the deposited data

How the results depend on the processing

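Of 582 tested member results under alternatives, 530 kept their side of the threshold, 49 lost a call and 3 gained one. The 530 include results that were not called in the main fit and stayed so. They are thus not the share of calls that held. In sign, 0 called changes turned round. The cause of the lost calls was not tested. Without a filter on low values, the number of the 9 members called was 2, against 5, for siEZH2-2 minus siEZH2-1, 1, against 2, for siLAT1-2 minus siNC and 3, against 5, for siLAT1-3 minus siLAT1-2; with a filter at 5 FPKM it was 2, against 4, for siEZH2-2 minus siNC, since SGMS1 and SGMS2 lie under that filter. With each library left out in turn, the number called was 3 to 3 with siEZH2-1 (3 with all libraries), 2 to 4 with siEZH2-2 (4), 2 to 4 between the EZH2 siRNAs (5), 1 to 2 with siLAT1-2 (2), 4 to 5 with siLAT1-3 (5) and 2 to 4 between the LAT1 siRNAs (5). Deviations of same-numbered libraries correlated at 0.355 for siEZH2-1 with siNC, at -0.353 for siEZH2-2 with siEZH2-1, at -0.339 for siEZH2-2 with siNC and at 0.0177 to 0.0826 among LAT1 libraries. Not every pair is above 0.1 and the labels do not say what a number marks. The numbers were therefore not taken to pair the libraries. In the EZH2 series the correlations were of similar size, and negative where siEZH2-2 was involved. What the EZH2 libraries share was not tested. The main fit takes libraries as independent and the replicate block follows the numbers as given. Neither fit allows for shared deviations of opposite sign. With the replicate block the members called were 3, 4 and 4 for the EZH2 comparisons and 2, 4 and 4 for the LAT1 comparisons, in the order above, and DEGS1 (adjusted p = 0.107) between the EZH2 siRNAs, SGMS2 with siLAT1-3 (0.0588) and CERS2 between the LAT1 siRNAs (0.0600) lost their calls. Among named pathway genes the block also ended the calls of ACER2 with siEZH2-1 (0.0600), SMPD4 (0.0884) and CERS4 (0.0822) with siEZH2-2, B4GALT6 between the EZH2 siRNAs (0.0835) and SMPD4 with siLAT1-2 (0.0599). Over all genes, calls without the filter were 1604 against 3156 with siEZH2-1, 1554 against 2874 with siEZH2-2, 836 against 1883 between the EZH2 siRNAs, 2402 against 3672 with siLAT1-3 and 1823 against 2981 between the LAT1 siRNAs, and with the block 2007 with siEZH2-1 and 1021 between the EZH2 siRNAs. With 1 library left out they were as low as 1204 with siEZH2-1 (without its replicate 2; 1270 without siNC replicate 1 and 2038 without siNC replicate 2), 1440 with siEZH2-2 (without siNC replicate 1), 649 between the EZH2 siRNAs (without siEZH2-1 replicate 2), 2363 with siLAT1-2 and 2213 with siLAT1-3 (both without siNC replicate 2), 2140 with siLAT1-3 (without siNC replicate 1) and 1952 between the LAT1 siRNAs (without siLAT1-2 replicate 1). The background shares move with them. The limits of these data are 2 libraries per group, unknown culture origin and a unit without counts, so depth per gene could not enter the fit.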
